A study of Mus musculus with 3 samples.

Results

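The regions described here were called for wild-type H2A.Z in mouse embryonic stem cells (ESCs) at a threshold of 1e-12 and shared no base with any wild-type region called at 1e-9. A list made at a stricter threshold would normally lie inside the looser one, so these are calls that only the stricter list of the library holds. There were 5384 of them among 66862 regions at 1e-12, or 8.05% of that list, and the looser list held 78359 regions. The members were chosen from the 2 wild-type lists, so their lengths and their distances to the looser list are descriptions with no test. Their annotation, their sequence and their overlap with the other libraries were not used to choose them. These traits are still not independent of the choice, because the rule removes every region that touches the looser list. That list lay within 2 kb of a start of 13599 of 22342 protein-coding genes (60.9%). Comparisons with the rest of the strict list are therefore descriptions too.

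The study compared an H2A.Z carrying the substitutions G92N, D97N and S98K in its acidic patch (AP3) with the wild-type protein, and mapped H3K27me3. There were 3 ChIP-Seq libraries, 1 per group, and no replicate of any. The wild-type and AP3 libraries came from transgenic ESC lines derived from KH2 cells. In both, a transgene fused to YFP was driven by a CMV promoter and induced with 1 µg/ml of doxycycline, YFP-positive cells were sorted, and endogenous H2A.Z was depleted with hairpins against its 3′ UTR. Both were immunoprecipitated with an anti-GFP antibody, so the calls refer to tagged protein expressed from a transgene. For the H3K27me3 library, whose genotype label is WT, the antibody recognised the histone mark. The strain of all 3 is labelled V6.5 (129SvJaexC57BL/6), and the transgenic lines are described as KH2 derivatives. Read depth, heights and p-values are not in the lists, and a difference between lists of 1 library each has no replicate check. Intervals below are 95% Wilson intervals, which treat regions, or genes, as independent and cover counting error only.

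H2A.Z is a variant of histone H2A that is deposited into nucleosomes on both sides of transcription start sites and at distal regulatory elements. In ESCs it is found at active promoters and also at those of silent developmental regulators, which carry the Polycomb mark H3K27me3. The acidic patch is a surface of the nucleosome to which chromatin proteins and neighbouring histone tails bind.

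The 5 longest members, which are far longer than most, are shown first because they are the largest stretches that only the strict list holds. The central bin of 25 bp is printed for each, on the forward strand of mm9, with CpG dinucleotides in capitals.
Dlec1, intron, chr9:119052526-119052550: ccacaggacctccctcccctgcccc
Tex22, promoter, chr12:114312801-114312825: ggacccacatgagCGttcacaggcc
Por, intron, chr5:136209876-136209900: tcacaccagcccttcctccaggtcc
Tekt2, promoter, chr4:126002226-126002250: ccccttaggcctgttccagatCGcc
Fcgbp, intron, chr7:28869776-28869800: agaacacatcaggccactggaagtg
Of these 5 bins only those at promoters hold a CpG, 1 each. The next longest members with H3K27me3 after the first, at Nacc2 and Snx33, hold 3 and 2 in their central bins. These are single bins of named members, and no comparison of sets is drawn from them. The longest with H3K27me3, in an exon of A030009H04Rik, holds 5 in its central bin.
A030009H04Rik, exon, chr11:69154276-69154300: CGttctgcCGCGCGccttcccCGct

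Members were short. The middle member spanned 150 bp, the quartiles were 50 and 250 bp, and the longest reached 2000 bp. For the 61478 regions at 1e-12 that lay inside the looser list, called inside regions here, the median was 225 bp and the quartiles were 125 and 450 bp. A single bin of 25 bp made up 969 members (18%) and 3504 inside regions (5.70%). At the other end, 371 members (6.89%) and 13485 inside regions (21.9%) reached 500 bp. In all, members covered 1.01 Mb and inside regions 21.1 Mb. Read by length, members were 1444 of 7557 strict regions of 25 to 50 bp (19%), 7.97% of those of 175 to 250 bp and 1.84% of those of 725 bp or more (1.55 to 2.18).

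**Figure D1:**
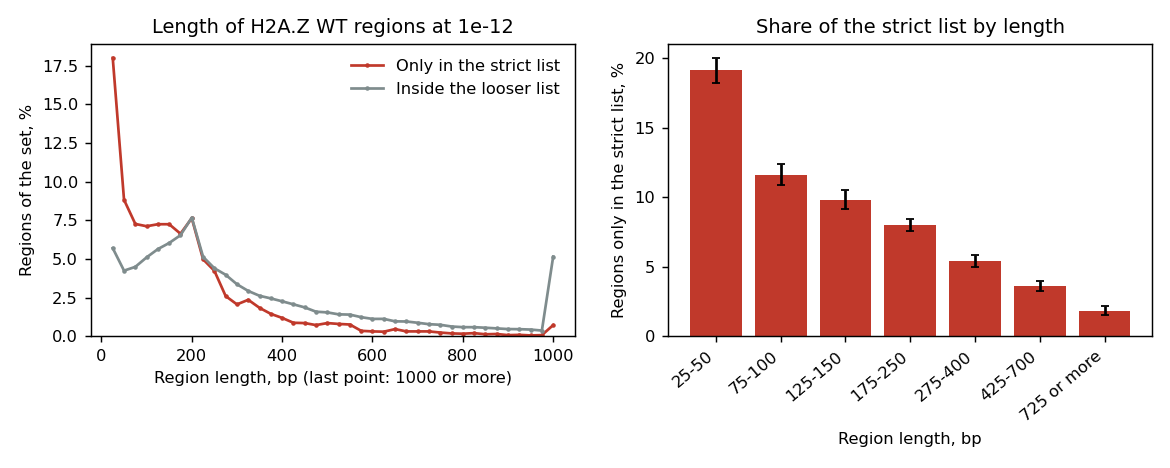
Left, length in bp against the percentage of each set of wild-type H2A.Z regions at 1e-12, in steps of 25 bp, for the 5384 members (red) and 61478 inside regions (grey). Right, members as a percentage of the strict list by length, with 95% Wilson intervals, falling from 19% for 25 to 50 bp to 1.84% for 725 bp or more.

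The boundary of the set was clean. Every one of the 61478 inside regions lay wholly within a region of the looser list, the smallest of them sharing the 25 bp of their only bin. The nearest members stood 225 bp from a looser region, which held for 16 of them, and 225 bp was also the shortest gap between neighbouring regions in each of the 6 lists. The median gap was 2575 bp, with quartiles of 875 and 7825 bp. Within 1 kb of a looser region lay 1539 members (28.6%, interval 27.4 to 29.8), and 1068 (19.8%) lay more than 10 kb from one. Most members stood alone. Joined across gaps of up to 1 kb they formed 5162 runs, of which 4955 held 1 member, 193 held 2 and 14 held 3 or more.

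The run with the most members held 4, over 2575 bp at chr9:110790751-110793325, with the nearest protein-coding start 9197 bp away, at Als2cl. The next 2 by the naming rule held 3 each. They lay at chr1:34722201-34723875, 55731 bp from a start of Arhgef4, and at chr1:36838451-36839425, 3091 bp from a start of Zap70, which encodes a T-cell receptor kinase.

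Members were found on all 19 autosomes at similar shares, with exceptions on chromosomes 6, 8 and X. On the other 17 autosomes they were 7.56% to 9.61% of the strict list, with a median of 8.33%. The share was 6.20% on chromosome 6 (396 of 6392, interval 5.63 to 6.81) and 6.21% on chromosome 8 (413 of 6654, interval 5.65 to 6.81). Counted per Mb, these chromosomes were not low, with 2.65 and 3.13 members per Mb against 1.35 to 3.39 on the other autosomes. The strict list itself was densest there, with 42.8 regions per Mb on chromosome 6 and 50.5 on chromosome 8. On the other autosomes it ran from 16.3 per Mb on chromosome 3 to 39.0 on chromosome 11. The lower shares on chromosomes 6 and 8 thus went with more strict regions per Mb, not with fewer members. The reason for that density was not tested. Chromosome X stood apart from all autosomes. It held 3 members among 465 regions, 0.645% (0.220 to 1.88), or 0.0180 per Mb. These 3, singled out after their values were seen, were 25 bp in Plp2, 578 bp downstream of its start, 150 bp in intergenic sequence 36182 bp from a start of the chemokine receptor gene Cxcr3, and 25 bp in intergenic sequence 67941 bp from a start of Trap1a.

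**Figure D2:**
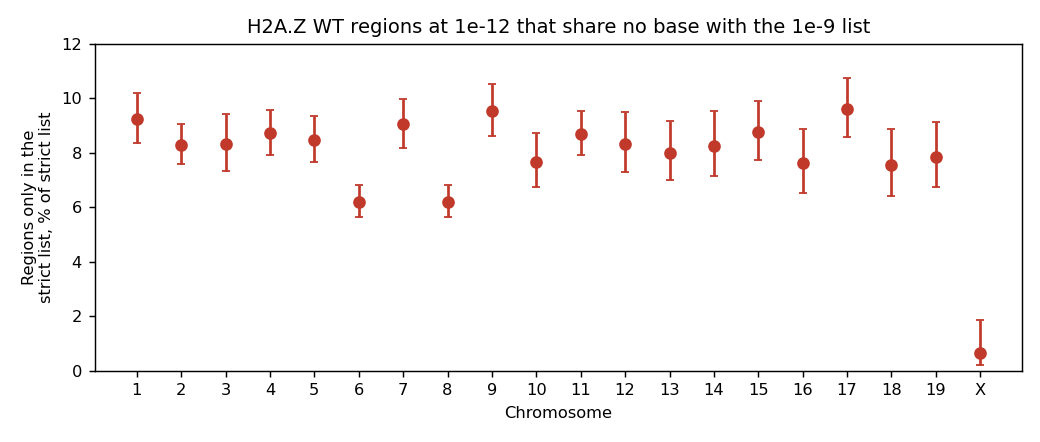
Members as a percentage of the wild-type H2A.Z regions at 1e-12 on each chromosome, with 95% Wilson intervals. The 17 autosomes other than 6 and 8 lie between 7.56% and 9.61%, chromosomes 6 and 8 at 6.20% and 6.21%, and X at 0.645%.

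By the midpoint, and in the order promoter, exon, intron and intergenic, members lay mainly outside promoters. A promoter was the sequence within 2 kb of any start of a protein-coding transcript, in 22342 genes. Promoters held 993 members (18.4%, interval 17.4 to 19.5), against 28.3% of inside regions (28.0 to 28.7) and 27.5% of all regions at 1e-12. Exons held 575 members (10.7%), close to the 10.5% of inside regions. Introns held 1629 (30.3%, interval 29.0 to 31.5) against 23.7% (23.4 to 24). Intergenic sequence held 2187 (40.6%, interval 39.3 to 41.9) against 37.5% (37.1 to 37.9) and 37.7% of all regions at 1e-12. Of the exonic members, 437 (76%) had their midpoint in coding sequence and 74 (12.9%) in UTR sequence alone, shares whose intervals overlapped those of inside regions (73.4% and 12.6%).

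Part of this went with length, since longer regions were more often in promoters. When inside regions were weighted to the lengths of the members, 22.1% lay in promoters, so the difference for promoters was -3.65 percentage points in place of -9.87. For intergenic sequence the weighted share of inside regions was 42.3%, and the difference turned from 3.13 to -1.66 points. Without weighting by length, the share in promoters was lower for members than for inside regions on 20 of 20 chromosomes, of which X held only 3 members.

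Within promoters, members were most frequent just downstream of the start. From the start to 500 bp downstream lay 387 of 993 (39.0%, interval 36.0 to 42.0), and 231 (23.3%) lay in the 500 bp upstream. For inside regions these shares were 46.5% (45.8 to 47.2) and 23.3%. Both outer parts, taken whole, held a larger share of the members. From 1 to 2 kb upstream lay 9.26% of members (7.62 to 11.2) against 5.46% of inside regions (5.13 to 5.80), and from 1 to 2 kb downstream 11.9% (10.0 to 14.0) against 8.31% (7.91 to 8.73). By the rule no member overlaps a looser region, and 38.3% of members in promoters lay within 1 kb of one. The positions are therefore not independent of how members were chosen. They are a description only, and were not weighted by length. Over the whole genome the median distance from a member to the nearest protein-coding start was 16934 bp, against 13302 bp, and 1286 members (23.9%) were more than 50 kb from any, close to the 22.5% of inside regions. Starts of noncoding genes outside these promoters added few. Within 2 kb of the start of a lincRNA gene lay 30 members (0.557%, interval 0.391 to 0.794), against 0.496% of inside regions, and 12 members (0.223%, interval 0.128 to 0.389) lay near the start of a miRNA gene, against 0.294%.

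**Figure D3:**
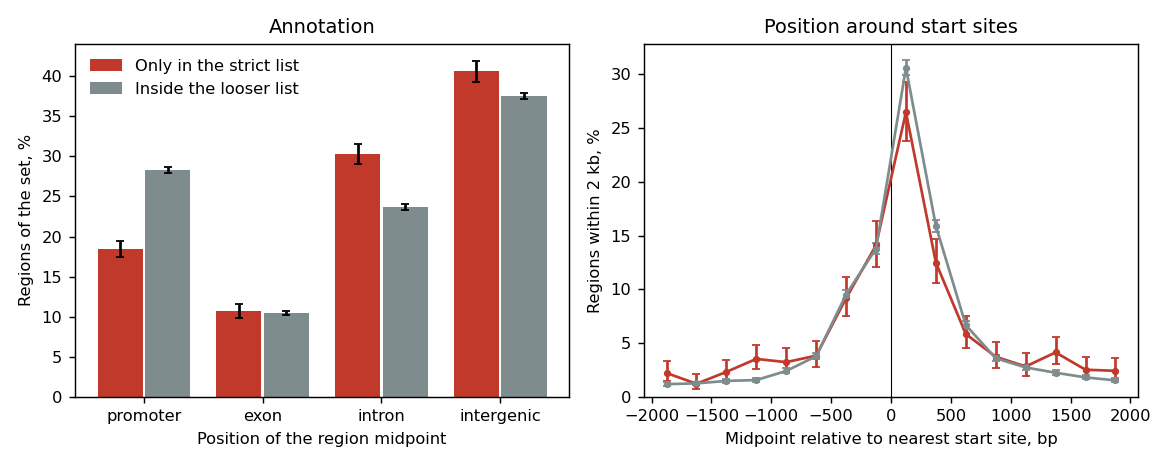
Left, percentage of members (red) and inside regions (grey) with their midpoint in each annotation class, 18.4% against 28.3% in promoters. Right, percentage of those within 2 kb of a protein-coding start by position in steps of 250 bp, negative values being upstream. Bars are 95% Wilson intervals. Both sets peak just downstream of the start, and members hold 11.9% against 8.31% from 1 to 2 kb downstream.

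Members were less often called in the AP3 library than inside regions were. Of the members, 212 (3.94%, interval 3.45 to 4.49) overlapped an AP3 region of the 1e-9 list by at least 1 bp. This compared with 9527 of 61478 inside regions (15.5%, interval 15.2 to 15.8) and 14.6% of all regions at 1e-12. The difference was -11.6 percentage points (Newcombe interval -12.1 to -10.9). Inside regions weighted to the members' lengths gave 9.58%, and the difference was then -5.64 points. With at least 0.5 of the region covered the shares were 2.21% and 7.79%, and with an AP3 region within 1 kb they were 10.5% and 22.5%. With the whole region covered they were closer, 1.28% and 1.96%. For whole coverage by the AP3 list at 1e-12 the order reversed, at 1.02% (0.786 to 1.33) and 0.823% (0.755 to 0.898), with overlapping intervals. These shares were not weighted by length. In each of the 7 length classes the share was lower for members. It was 1.39% against 3.03% at 25 to 50 bp, 5.54% against 11.0% at 175 to 250 bp, and 12.3% (7.72 to 19) against 37.8% (36.7 to 38.9) at 725 bp or more. At 75 to 100 bp the intervals overlapped, with 3.36% (2.30 to 4.88) against 4.53% (4.03 to 5.09).

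The same order was seen on 20 of 20 chromosomes. Across the 19 autosomes 12.3% to 23.3% of inside regions overlapped AP3. For members the range was 2.03% to 7.32% on the autosomes other than 18, and on chromosome 18 it was 0 of 136. If 3 regions are taken as the upper limit for a count of 0, in place of a Wilson interval, a share of up to 2.21% is allowed. Chromosome X held only 3 members. On chromosomes 6 and 8, AP3 overlapped 52 of 809 members (6.43%, interval 4.94 to 8.33) and 22.8% of inside regions. On the other chromosomes it overlapped 160 of 4575 (3.50%, interval 3.0 to 4.07) and 13.7%. The members with AP3 were longer than the others, 200 bp against 150 bp by the median, and 26.9% of them lay in promoters against 18.1%. The same order held for inside regions, at 450 bp against 200 bp and 41.3% against 25.9%.

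The AP3 library had its own regions that only the stricter list held, 2529 in number. Of these, 86 overlapped a member, which is 3.4% of the AP3 set and 1.60% of the members (1.30 to 1.97), while 1736 (68.6%) overlapped the looser wild-type list. These AP3 regions overlapped 2.61% of inside regions (2.49 to 2.74), so the shares lay closer together than for the AP3 list at 1e-9. With both AP3 lists joined, 298 members (5.53%) were overlapped, against 18% of inside regions.

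H3K27me3 was likewise called at few members. An H3K27me3 region of the 1e-9 list overlapped 136 members (2.53%, interval 2.14 to 2.98), against 5923 inside regions (9.63%, interval 9.40 to 9.87) and 9.06% of all regions at 1e-12. The difference was -7.11 points (Newcombe interval -7.56 to -6.60), and -3.36 points with inside regions weighted to the members' lengths, which gave 5.89%. Among the 3845 members more than 1 kb from the looser list it was 1.33%, and an H3K27me3 region lay within 1 kb of 4.96% of members and 14.3% of inside regions. The share was lower for members in 7 of 7 length classes, from 1.80% against 3.21% at 25 to 50 bp to 6.92% (3.68 to 12.6) against 29.3% (28.2 to 30.4) at 725 bp or more. At 75 to 100 bp the intervals overlapped here too, with 1.94% (1.18 to 3.17) against 3.29% (2.86 to 3.78). It was also lower on 20 of 20 chromosomes, X again with 3 members. Members with H3K27me3 lay mostly in promoters. Of the 136, 79 (58.1%) lay in promoters, their median observed-to-expected CpG ratio was 0.479 against 0.300 for members without the mark, and 81 were wholly covered by the mark. Inside regions with the mark showed the same order, with 64.7% in promoters and a ratio of 0.627 against 0.346. Within promoters alone, 7.96% of members and 22.0% of inside regions had H3K27me3, and 5.74% and 22.6% had AP3.

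**Figure D4:**
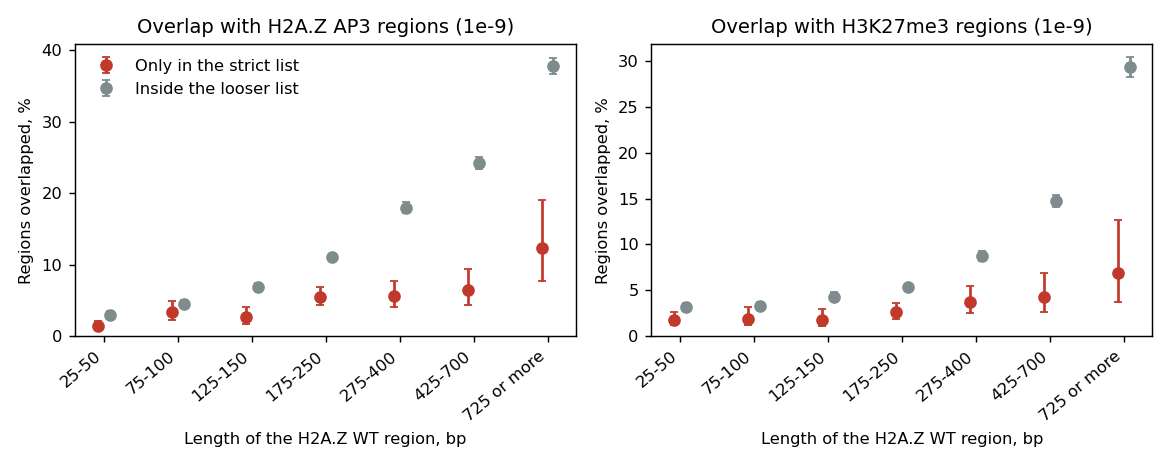
Percentage of wild-type H2A.Z regions overlapped by an AP3 region (left) or an H3K27me3 region (right) of the 1e-9 lists, by length of the wild-type region in bp, for members (red) and inside regions (grey), with 95% Wilson intervals. Members lie below inside regions in every class, 12.3% against 37.8% for AP3 and 6.92% against 29.3% for H3K27me3 at 725 bp or more.

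Only 4 members (0.0743%, interval 0.0289 to 0.191) carried both, against 1627 inside regions (2.65%) and 2.44% of all regions at 1e-12. They are named for that reason, after their values were seen. They were 250 bp at the promoter of Avp, the vasopressin gene (chr2:130406951-130407200), 250 bp in an exon of the transcription factor gene Nfix (chr8:87230976-87231225), 125 bp in an intron of B230323A14Rik (chr9:69612376-69612500), 3691 bp upstream of a start of Foxb1, and 175 bp at the promoter of Caskin1 (chr17:24625276-24625450). AP3 covered 225 bp of the member at Avp and 25 bp of that at Nfix. Neither AP3 nor H3K27me3 overlapped 5040 members (93.6%, interval 92.9 to 94.2), against 77.5% of inside regions.

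The longest members were then examined one by one. The longest was 2000 bp in an intron of Dlec1 (chr9:119051526-119053525), 275 bp from a looser wild-type region, with no AP3 or H3K27me3. The second, 1800 bp (chr12:114311901-114313700), covered the start of Tex22, a gene named for expression in testis, and stood 8975 bp from the looser list. The third was 1650 bp in an intron of Por (chr5:136209051-136210700), which encodes the reductase that passes electrons to cytochromes P450. Its distance to the looser list was 9100 bp. The fourth, 1575 bp (chr4:126001451-126003025), lay at the promoter of Tekt2, a tektin of cilia and flagella, 800 bp from the looser list, and AP3 regions covered 450 bp of it. The fifth was 1500 bp in an intron of Fcgbp (chr7:28869026-28870525), 275 bp from the looser list. Of these 5, 1 had AP3 and 0 had H3K27me3, and distances to the looser list ranged from 275 to 9100 bp.

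After the member at Tekt2, the longest with AP3 were 1250 bp in an intron of the cAMP phosphodiesterase gene Pde4a (chr9:20985126-20986375), of which AP3 covered 200 bp, and 1200 bp in an intron of the lysyl oxidase-like gene Loxl3 (chr6:82998751-82999950), of which it covered 625 bp. The longest with H3K27me3 was 1200 bp in an exon of A030009H04Rik (chr11:69153676-69154875), whose whole length was covered. Its central 200 bp held 74.0% G and C. The next were 1175 bp at the promoter of Nacc2 (chr2:25946451-25947625) and 1025 bp in an exon of the sorting nexin gene Snx33 (chr9:56773176-56774200), where the mark covered only 50 and 25 bp.

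The longest intergenic members over 50 kb from any protein-coding start spanned 1475, 850 and 825 bp. In that order, they lay 100461 bp from a start of Lrrc28 (chr7:74623426-74624900), 85064 bp upstream of Bcl11b (chr12:109326451-109327300) and 61229 bp upstream of Runx3 (chr4:134614926-134615750). Bcl11b and Runx3 encode transcription factors of lymphocyte development. None of the 3 was overlapped by an AP3 or H3K27me3 region of the 1e-9 lists.

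By gene, members lay within 2 kb of a start of 999 protein-coding genes (4.47% of 22342). Of these, 604 also had a wild-type region of the looser list within 2 kb of a start, though not always the same start. The other 395 (1.77% of all genes) had none, so that their only wild-type call there came from the strict list. The looser list itself reached 13599 genes (60.9%). At the 395 genes the members covered a median of 225 bp. AP3 was called within 2 kb of a start of 59 of these genes (14.9%, interval 11.8 to 18.8). This share lay between the 34.5% of genes with a looser wild-type region (33.7 to 35.3) and the 2.71% of the 8348 genes with no wild-type call in either list (2.38 to 3.08). H3K27me3 was called at 29 of the 395 genes (7.34%, interval 5.16 to 10.3), again between 27.8% (27 to 28.5) and 2.12% (1.83 to 2.45). Genes with neighbouring starts, such as Ccdc115 and Imp4, can share a member and an AP3 region. They were counted as separate genes, and the intervals treat them as independent. Seen from the other side, 285 genes had AP3 and no looser wild-type region, and members were present at 59 of them (20.7%), compared with 336 of 8458 genes without AP3 (3.97%). For H3K27me3 the counts were 29 of 206 (14.1%) and 366 of 8537 (4.29%).

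The 10 such genes with most member bases were Tex22 (1800 bp), Ogfod2 (1400 bp), BC021614 (1300 bp), Cryaa (1100 bp), Ccdc115, Imp4 and Mtap1s (1075 bp each), Ptprv (1050 bp), Cbr3 (1025 bp) and Chid1 (1000 bp). Ccdc115 and Imp4, whose product acts in ribosomal RNA processing, share 1 member that spans both of their divergent starts (chr1:34495926-34497000), with its midpoint 54 bp downstream of the former and 233 bp upstream of the latter. AP3 covered 200 bp of those promoters and 425 bp at Mtap1s, which encodes a microtubule-associated protein. Among the 10, H3K27me3 was called at Cbr3 alone, a carbonyl reductase gene, over 250 bp. Cryaa, which encodes a lens crystallin, had neither, and the member at BC021614 was overlapped by an AP3 region found only in the strict AP3 list. Distances from these members to the looser list ran from 975 bp at BC021614 to 27225 bp at Cbr3.

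Some of these members hold a GC box, the motif bound by factors of the Sp family. A single box is shown, in capitals, for each member whose midpoint lay within 250 bp of a start. It is printed as GGGCGG or its reverse complement CCGCCC, on the forward strand of mm9.
Tex22, chr12:114312651-114312676: cgcgtggaggGGGCGGaagcggccgc
Ogfod2, chr5:124561887-124561912: acgccctcccCCGCCCacactgcctc
Ccdc115 and Imp4, chr1:34496204-34496229: acgcgcggatGGGCGGagccacttcc
Mtap1s, chr8:73429858-73429883: gtggccagcgGGGCGGggcgctcaga
Cbr3, chr16:93683353-93683378: actggccggcGGGCGGgcgggcaggc
Chid1, chr7:148725805-148725830: cgctgggatgGGGCGGgaccgagatg
At Cryaa no GC box was found within the member. Members at BC021614 and Ptprv, with midpoints farther from a start, also held a box. These boxes were sought over whole members, so the shares in windows of 200 bp given below are no background for them. A match describes the letters and is not evidence of binding.

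**Figure D5:**
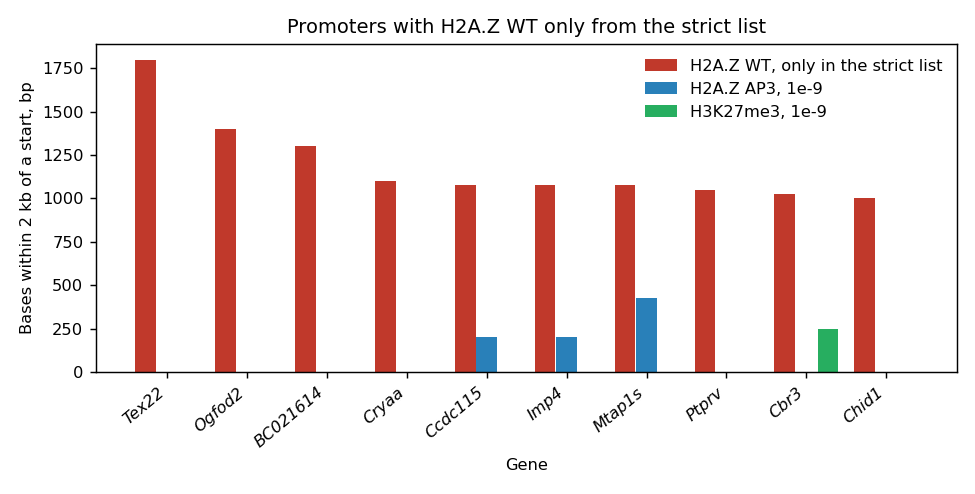
Bases within 2 kb of a start covered by members (red), AP3 regions (blue) and H3K27me3 regions (green) of the 1e-9 lists, at the 10 genes with most member bases and no looser wild-type region. Member bases run from 1000 to 1800 bp, and AP3 is present at Ccdc115, Imp4 and Mtap1s and H3K27me3 at Cbr3.

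Gene groups were read against the 4.47% of all genes with a member. Most groups are small, so counts of 0 or of a few genes are descriptions, and a difference from that share was not tested. In a chosen list of developmental transcription factor genes, a class that includes Polycomb targets in ESCs, 2 of 78 (2.56%) had a member, Sox7 and Dlx1. A looser wild-type region was present at 76 of the 78. The list does not hold the whole class. Outside it, for example, Lmx1a had 700 bp of member and Phox2a 275 bp, the latter with no looser region. Both had H3K27me3, over 2900 and 2177 bp. Hox genes had a member at 0 of 40 and a looser region at 38. Of 39 genes for signalling ligands and their antagonists, 36 had a looser region and 2 a member. At Dhh, which encodes desert hedgehog, the member was 525 bp (chr15:98728426-98728950) beside 100 bp of looser regions and 2055 bp of H3K27me3. At Lefty1, a Nodal antagonist, 75 bp lay 1290 bp upstream of the start (chr1:182863826-182863900) and was the only wild-type call, beside 1200 bp of H3K27me3. At Sox7, 2 members of 100 and 325 bp lay upstream, the nearer of them 523 bp from the start.

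Genes of Polycomb complexes had a member at 4 of 30, and all 4 also had looser regions within 2 kb of a start. These were Phc2 (375 bp) and Cbx8 (150 bp), which encode PRC1 subunits, Phf19 (150 bp), an accessory subunit of PRC2, and Kdm2b (25 bp), a protein that binds CpG islands. At Phc2 and Kdm2b the looser regions lay at other starts, since their members were 7650 and 51325 bp from the nearest one. Among 20 gene models for H2A.Z and the machinery that deposits or removes it there were 0 with a member and 14 with a looser region. Of 24 pluripotency genes 8 had a looser region and 1 a member, Dppa3, over 25 bp (chr6:122578051-122578075), with no looser region and 75 bp of H3K27me3.

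Imprinted genes had a member at 3 of 27, Magel2 (200 bp), Plagl1 (200 bp) and Gnas (100 bp). At Plagl1, a zinc finger gene, it lay 7 bp downstream of a start (chr10:12810726-12810925) and was the only wild-type call. Of 26 germline genes 1 had a member, Figla, an oocyte transcription factor gene, over 325 bp. Protocadherin genes had a member at 4 of 36 (Pcdh1, Pcdh12, Pcdhgc5 and Pcdh15), and each of these genes also had looser regions within 2 kb of a start. At Pcdh15 those lay at other starts, since the member of 25 bp was 721575 bp from the nearest looser region, farther than any other member.

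Of 77 mitochondrial ribosomal protein genes 64 had a looser region and 3 a member. At Mrps23 there was a member on each side of the start, 350 bp long and 389 bp upstream (chr11:88017326-88017675) and 325 bp long and 117 bp downstream (chr11:88017901-88018225). At Mrpl12 the 2 members of 225 and 200 bp lay 214 bp upstream and 224 bp downstream. Neither gene had a looser region, and the third, Mrps34, had 275 bp of member beside 1025 bp of looser regions. Genes with symbols of cytosolic ribosomal proteins, a set that also takes in S6 kinase genes, had a member at 2 of 148, Rps13 (325 bp) and Rpl30 (150 bp), neither with a looser region, against 53 with one.

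In larger gene families, of 344 genes with Zfp symbols, 16 (4.65%) had a member, close to the share of all genes, and 12 of the 16 had no looser region. Those with most bases were Zfp963 (625 bp), Zfp719 (550 bp), Zfp628 (400 bp) and Zfp346 (375 bp). Of 1087 olfactory receptor genes 6 (0.552%) had a member, Olfr281, Olfr550, Olfr1362, Olfr1414, Olfr30 and Olfr437, and 5 of these had no looser region. Of 320 vomeronasal receptor genes 1 had a member, Vmn1r1, over 25 bp, and 0 had a looser region. Replication-dependent histone genes (66, of which 11 had a looser region) and keratin-associated protein genes (46, of which 10 did) had 0.

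In sequence, members resembled inside regions with fewer CpG, in comparisons that were not weighted by length. In the 200 bp around the midpoint the median G and C content was 56.5% (quartiles 54.0 and 59.0) against 57.5% (55.0 and 61.0). The median ratio of observed to expected CpG was 0.304 (quartiles 0.189 and 0.458) against 0.369 (0.224 and 0.572). In promoters the ratios were 0.504 and 0.626, and in intergenic sequence 0.264 and 0.290. The central 31 bases occurred once in the genome for 5326 members (98.9%, interval 98.6 to 99.2) and 98.4% of inside regions, and more than 10 times for 12 members.

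Motifs were searched on both strands in the same windows of 200 bp, again without weighting by length. The GC box GGGCGG was found in 584 members (10.8%, interval 10.0 to 11.7), against 16.2% of inside regions (15.9 to 16.5) and 15.8% of all regions at 1e-12. In promoters it was in 20.8% of members (18.4 to 23.5) and 28.4% of inside regions (27.7 to 29.0). For 3 other motifs the intervals of members and inside regions overlapped. The core of the CTCF motif was in 1.84% of members (1.51 to 2.23) and 1.71% of all regions. The octamer ATGCAAAT, bound by Oct4, was in 0.334% (0.212 to 0.528) and 0.329%. The E-box CACGTG was in 6.05% (5.45 to 6.72) and 5.53%.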

How the data were processed

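Per the labels and the methods, the authors aligned single-end reads to mm9 with Bowtie 0.12.3, extended them, allocated them to 25-bp bins and called bins by a Poisson model with a minimal fold over input. The methods give the threshold of 1e-9 only, and do not say how the 1e-12 lists were made. The processing notes also name bedtools. The deposited values are starts and ends of regions in bp, with no count, signal or score, and depth is unknown. The methods say that H3K27me3 peaks came from the group's earlier work, without giving their processing, and do not say whether the deposited lists are those peaks.

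Members were found by overlap of 0 bp with the looser wild-type list. Coordinates are printed 1-based. Gene models were GENCODE vM1 on NCBIM37 (mm9), with 45993 pairs of gene and start site. All region ends lay within the chromosome lengths of that genome, which supplied the sequences. It is not soft-masked, so the planned share of masked repeats was not run. RefSeq promoter sequences on another build were not used here.

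Members and gene lists were chosen with earlier results of these data known. Named regions were the longest in each class and the runs with most members. Named genes were those of the lists with a member (the top 4 by bases where over 8) and the 10 with most member bases and no looser region. Lmx1a and Phox2a were added as examples outside the lists, after their values were seen. With 1 library a group no test was made. Length weighting used classes of 25 bp, capped at 1000 bp. Alternatives covered lists, windows, overlap criteria, chromosomes, length and joining. Overlap functions were tested on simulated data. Software was Python 3.11.15, NumPy 2.4.6, pandas 2.3.3, SciPy 1.17.1, pysam 0.24.0, numba 0.67.0, Matplotlib 3.10.9 and samtools 1.23.1.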

Additional observations from a re-analysis of the deposited data

How the results depend on the processing

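Values were recomputed under 59 alternatives, of which 34 stayed within the interval of the reported value or, for counts, within 1.5 times. No paired analysis was possible because each group had 1 library. The AP3 share was 5.53% with both AP3 lists joined, 2.21% with at least 0.5 of the member covered, 10.5% with AP3 within 1 kb and 5.07% for members of at least 100 bp. The H3K27me3 share was 2.14% with the 1e-12 list, 2.01% under the same rule, 4.96% within 1 kb and 1.33% for members over 1 kb from the looser list. The promoter share was 14.5% with 1 kb, 26.9% with 5 kb, 15.3% with the most upstream start, 21.0% for members of at least 100 bp and 15.9% for those over 1 kb from the looser list. The intergenic share was 43.3% with protein-coding genes alone, 38.3% at 100 bp or more and 42.8% over 1 kb from the looser list. The share near the looser list was 65.2% at 5 kb and 27% without chromosomes 6 and 8. At 200 bp it was 0%, since the nearest members stood 225 bp from a looser region. At 100 bp or more there were 3549 members with a median of 200 bp. With inside regions weighted by length, the differences were -5.64 points for AP3, -3.36 for H3K27me3 and -3.65 for promoters, and the intergenic difference reversed to -1.66. The share of masked repeats was not computed, since the genome used is not soft-masked. Read depth is unknown, so the absence of a call gives no limit on how much protein or mark was there.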
